A study of Mus musculus with 4 samples.

Results

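Glucose enters a cell through transporters, is split to pyruvate by the enzymes of glycolysis, and the pyruvate is then reduced to lactate or carried into mitochondria and oxidised by the pyruvate dehydrogenase (PDH) complex. The expression of 38 genes of this route was described in CD69+CD4+CD8+ (CD69+DP) thymocytes, out of 24421 genes listed. They were picked by symbol for their role: 4 glucose and lactate transporters, 10 genes of upper glycolysis, 3 *Pfkfb* genes, 6 genes of lower glycolysis, 2 lactate dehydrogenases, 2 subunits of the mitochondrial pyruvate carrier, 4 subunits of the PDH complex, 4 PDH kinases, 2 PDH phosphatases and the regulator *Hif1a*. All 38 symbols were found once, and 34 passed the filter for testing, that is, an FPKM (fragments per kilobase of gene, scaled for sequencing depth) of 1 or more in 2 or more samples. The other 4 (*Hk3*, *Aldoc*, *Eno1* and *Pdk4*) are given by their values.

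RNA was sequenced from 4 samples of sorted CD69+DP cells, which have received a T-cell receptor (TCR) signal in the thymus: 2 control samples and 2 Foxa1/2cKO samples. All came from adult C57BL/6 mice aged 6 weeks that carried floxed *Foxa1* and *Foxa2* alleles on both chromosomes (Foxa1fl/flFoxa2fl/fl). The Foxa1/2cKO mice also carried the CD4Cre transgene, in which the *Cd4* promoter drives Cre recombinase so that deletion begins as thymocytes express CD4, and control mice lacked it (CD4Cre-), so no group carries Cre with unfloxed alleles. Samples were independent sorts of different mice, a sort held 2 mice of either genotype, and the labels do not say what a replicate number marks.

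Resting lymphocytes mainly oxidise pyruvate in mitochondria, whereas lymphocytes that proliferate or respond to antigen raise glucose uptake and lactate output. PDH kinases phosphorylate the E1 alpha subunit of PDH and switch the complex off, which keeps pyruvate out of the citric acid cycle, and PDH phosphatases switch it back on. Hypoxia-inducible factor 1 (HIF-1), of which *Hif1a* encodes the regulated subunit, is a known activator of many glycolytic genes and of *Pdk1*, and binds the short core ACGTG or GCGTG.

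The sequences of the 4 kinase promoters are shown because *Pdk1* had the lowest p-value of the 38 genes, and that of *Ldha* for comparison as another known HIF-1 target. They come from RefSeq (build GRCm38.p6), run 5′ to 3′ from 170 bases before to 30 bases after the annotated start of transcription, and carry the hypoxia core on either strand in capitals. *Pdk1* and *Pdk2* each have a second annotated start whose promoter holds no such core and is not shown. *Ldha* also has a second start, whose promoter of 300 bases holds the core 2 times and is not shown.
Pdk1, chr2:71873054-71873253, plus strand: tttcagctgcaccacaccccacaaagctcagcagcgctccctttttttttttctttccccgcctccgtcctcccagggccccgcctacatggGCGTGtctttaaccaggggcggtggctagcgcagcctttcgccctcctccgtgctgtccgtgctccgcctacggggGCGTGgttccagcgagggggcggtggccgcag
Pdk2, chr11:95041342-95041541, minus strand: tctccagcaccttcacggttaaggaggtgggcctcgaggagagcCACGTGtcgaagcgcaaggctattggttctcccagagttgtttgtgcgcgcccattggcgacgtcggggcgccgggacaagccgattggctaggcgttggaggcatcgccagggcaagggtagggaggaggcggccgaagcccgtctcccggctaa
Pdk3, chrX:93832121-93832320, minus strand: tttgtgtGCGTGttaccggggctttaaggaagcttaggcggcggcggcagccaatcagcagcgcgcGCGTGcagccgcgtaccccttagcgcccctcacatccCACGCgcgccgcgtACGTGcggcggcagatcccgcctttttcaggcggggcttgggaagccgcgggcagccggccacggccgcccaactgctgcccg
Pdk4, chr6:5496249-5496448, minus strand: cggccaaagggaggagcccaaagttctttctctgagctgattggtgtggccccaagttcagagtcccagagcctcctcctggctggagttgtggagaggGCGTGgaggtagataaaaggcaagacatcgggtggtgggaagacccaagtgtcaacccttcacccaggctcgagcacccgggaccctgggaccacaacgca
Ldha, chr7:46845634-46845833, plus strand: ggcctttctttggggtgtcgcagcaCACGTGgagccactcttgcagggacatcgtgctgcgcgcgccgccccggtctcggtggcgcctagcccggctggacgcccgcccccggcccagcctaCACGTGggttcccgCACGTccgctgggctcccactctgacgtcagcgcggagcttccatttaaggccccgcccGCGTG

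The shown *Pdk1* promoter holds the core 2 times, with the first base 78 and 2 bases before the start. The *Pdk3* promoter holds it 4 times, and the *Pdk4* promoter holds it once, 71 bases before the start. In the *Pdk2* promoter the core occurs 1 time on each strand within the palindrome CACGTG, the E-box bound by MYC family factors, so those matches overlap. *Ldha* holds 6 matches in the stretch shown, 4 of which lie in E-boxes. A promoter entry of 300 bases was present for 36 of the 38 genes, and 32 of the 36 held the core in at least 1 promoter. Counted by promoter, 42 of 53 member promoters (79.2%) held it, beside 43.8% of all 32851 promoters in the table and 63.4% of the 10385 promoters of the 8180 tested genes that have an entry. Counted by gene, 28 of the 32 tested members with an entry (87.5%) held the core in at least 1 promoter, beside 69.1% of those 8180 genes. The E-box CACGTG was present in 15.1% of member promoters and 7.15% of all promoters, and was not counted over the promoters of tested genes. A forkhead word (TGTTTAC or TATTTAC, either strand), of the kind that FOXA proteins bind, occurred in 1 of the 53 member promoters (1.89%), an *Aldoc* promoter, beside 6.54% of all promoters and 3.996% of those of tested genes. These are counts of letters in short windows and not binding sites.

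Reads behind the FPKM were recovered as whole numbers and came to between 10301761 and 14341996 per sample. The deleted genes *Foxa1* and *Foxa2* had a value of 0 in every one of the 4 samples and give no check of the genotype. The 8 CD69+DP markers were all present, with summed FPKM of 3155 and 3191 in the controls, against 3157 and 3951 in Foxa1/2cKO. The markers did not move alike. In Foxa1/2cKO 2 *Cd8b1* was at 974 FPKM, against 592 and 613 in the controls, whereas *Cd3e* was at 396 in each of these samples. Foxa1/2cKO 2 stood apart: on the first principal component, with 65.2% of the variance, it was at 28.5 and the other samples between -11.0 and -7.42. Its 7 cycling markers summed to 143 FPKM, against 393 and 416 in the controls and 453 in Foxa1/2cKO 1, and its 5 mature single-positive markers to 174 against 227.9 to 261.2. The 6 B cell markers summed to 50.6 to 76.2 FPKM in the controls and 54.4 to 104 in Foxa1/2cKO, and the 8 myeloid markers to 22.9 to 38.2 and 21.5 to 37.7. The 4 globin genes were at 0 in every sample, the 6 erythroid markers summed to at most 2.67 FPKM, and the 5 thymic epithelial markers to between 3.18 and 4.18. The 8 dissociation stress genes summed to 209 to 238 FPKM in the controls and 180 to 255 in Foxa1/2cKO.

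Between Foxa1/2cKO and control, 0 of the 34 tested members had an adjusted p under 0.05 (limma on log2(FPKM + 1), two-sided, Benjamini-Hochberg over 10776 genes). The same threshold was passed by 1 gene, or 0.00928% of all genes tested. At an unadjusted p under 0.05 there were 4 members, or 11.8%, beside a background of 4.55% of all genes tested. *Pdk1* and *Hif1a* were the 2 with higher means in Foxa1/2cKO (5.88% of members, background 2.39%), and *Pfkl* and *Pkm* the 2 with lower means (5.88%, background 2.15%). With so few members these shares rest on 4 genes. limma-voom on the recovered reads put 5 members under an unadjusted p of 0.05 (background 4.82%) and 0 under an adjusted one.

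Most members had similar values in the 2 groups, as did most genes tested. Of the 34, 14 (41.2%) had a higher and 20 a lower fitted value in Foxa1/2cKO, beside 51.3% higher over all genes tested. An absolute log2 fold change under 0.25 was found for 28 members, and for 8876 of the 10776 genes tested. The median log2 fold change of the members was -0.05, beside 0.01 for all genes tested, and the log2 fold changes ran from -0.64 for *Tpi1* to 0.71 for *Pdk1*. The lower Foxa1/2cKO sample exceeded the higher control for 5 members (14.7%, background 18.9%) and the higher one was under the lower control for 10 members (29.4%, background 17.8%). For a single gene, 0.333 is the smallest two-sided p that an exact permutation test can reach with 2 samples per group.

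**Figure D1:**
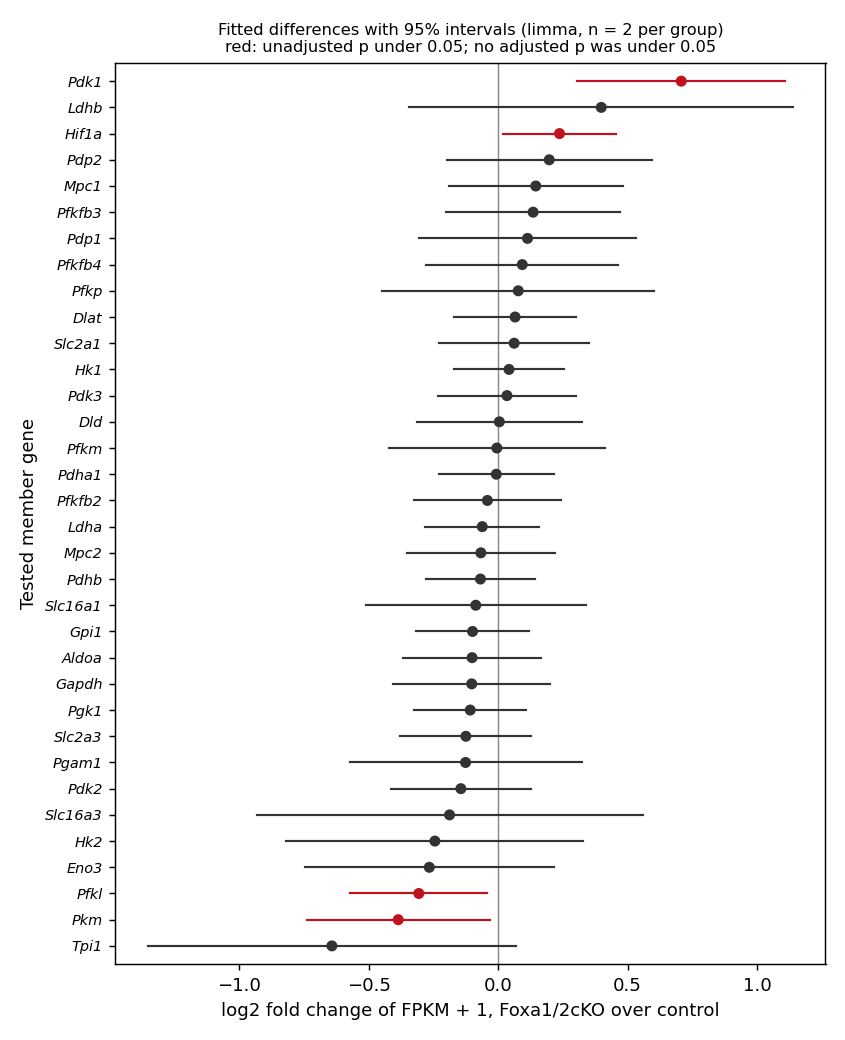
Points give the fitted log2 fold change of FPKM + 1 (Foxa1/2cKO over control, n = 2 per group) of the 34 tested members, lines the 95% interval from limma, and red the 4 members with an unadjusted p under 0.05. *Pdk1* has the highest value, 0.71, and *Tpi1* the lowest, -0.64. Within 0.25 of 0 lie 28 members, and 8876 of the 10776 genes tested.

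The PDH kinase *Pdk1* (chromosome 2 of GRCm38.p6, 71873215 to 71903858) had an FPKM of 22.05 and 22.8 in the controls and of 32.3 and 42.9 in Foxa1/2cKO 1 and 2. Both Foxa1/2cKO samples were above both controls, and they lay further from each other than the controls did. The means were 22.4 ± 0.523 and 37.6 ± 7.45 FPKM (SD, n = 2 each), a ratio of 1.68, from 1604 to 2465 reads per sample, and 0% of the 50-base stretches of this transcript occur in other annotated genes. The log2 fold change was 0.71 (standard error 0.15, 95% interval 0.31 to 1.11, unadjusted p = 0.00673, limma's Benjamini-Hochberg adjusted p = 0.863), which ranked *Pdk1* 48th of the 10776 genes by p. It was 0.51 without Foxa1/2cKO 2 (adjusted p = 0.0929 from limma) and 0.91 without Foxa1/2cKO 1, and each of these values rests on 1 Foxa1/2cKO sample. Without Foxa1/2cKO 1 its adjusted p from limma was 0.000957, the lowest over all alternatives, and the highest, without control 1, was 0.99995. The fit without Foxa1/2cKO 1 put 2559 genes past the threshold. With the null variance re-estimated from the central genes, the p of *Pdk1* before adjustment was 0.0714 (limma p rescaled to a normal null). That setting left 0.251% of all genes tested under a p of 0.05, against 4.55% in the main fit.

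For the 3 other kinases the groups lay closer together. *Pdk3* (X chromosome), at 21.5 and 22.5 FPKM in the controls about as abundant as *Pdk1*, had 24.0 and 21.2 in Foxa1/2cKO, which overlap. Its log2 fold change was 0.03 (standard error 0.10, 95% interval -0.23 to 0.30, unadjusted p = 0.751 from limma). *Pdk2*, a kinase of broad tissue distribution, had 9.09 and 9.63 FPKM in the controls, against 8.72 and 8.05 in Foxa1/2cKO, where both samples were lower, with a log2 fold change of -0.14 (standard error 0.10, 95% interval -0.42 to 0.13, unadjusted p = 0.225 from limma). *Pdk4*, the kinase induced by fasting in muscle and other tissues, was at or near 0: it had 1 read in control 1 and was listed at 0 in the other 3 samples, where 3 reads (the most that a value of 0 leaves room for) would be an FPKM of 0.0580 to 0.0805 at these depths (counting error only).

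In the controls *Pdk1* and *Pdk3* therefore made up near-equal parts of the kinase transcripts. The *Pdk1* share of the summed FPKM of the 4 kinases was 41.8% and 41.5% in the controls, against 49.7% and 59.4% in Foxa1/2cKO. The *Pdk3* share was 40.9% and 41.0% in the controls, against 36.9% and 29.4% in Foxa1/2cKO. The *Pdk2* share was 17.3% and 17.5% in the controls, against 13.4% and 11.2% in Foxa1/2cKO. None of the 3 shares overlapped between the groups, and since they sum to the whole, a higher *Pdk1* share lowers the other two. The sum of the 4 kinases was 52.7 and 54.9 FPKM in the controls, against 65.0 and 72.1 in Foxa1/2cKO.

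The phosphatases that oppose the kinases were expressed at lower levels. *Pdp1*, which encodes the calcium-sensitive isoform, had 4.18 and 4.04 FPKM in the controls, against 3.92 and 5.21 in Foxa1/2cKO, which overlap. *Pdp2*, the isoform without calcium dependence, had 4.35 and 4.63 FPKM in the controls, against 4.66 and 6.00 in Foxa1/2cKO, with a log2 fold change of 0.20 (standard error 0.15, unadjusted p = 0.252 from limma) that was 0.04 without Foxa1/2cKO 2. Both phosphatases were thus highest in Foxa1/2cKO 2 and at the control level in Foxa1/2cKO 1. The ratio of summed kinase to summed phosphatase FPKM was 6.18 and 6.34 in the controls, against 7.58 in Foxa1/2cKO 1 and 6.43 in Foxa1/2cKO 2.

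**Figure D2:**
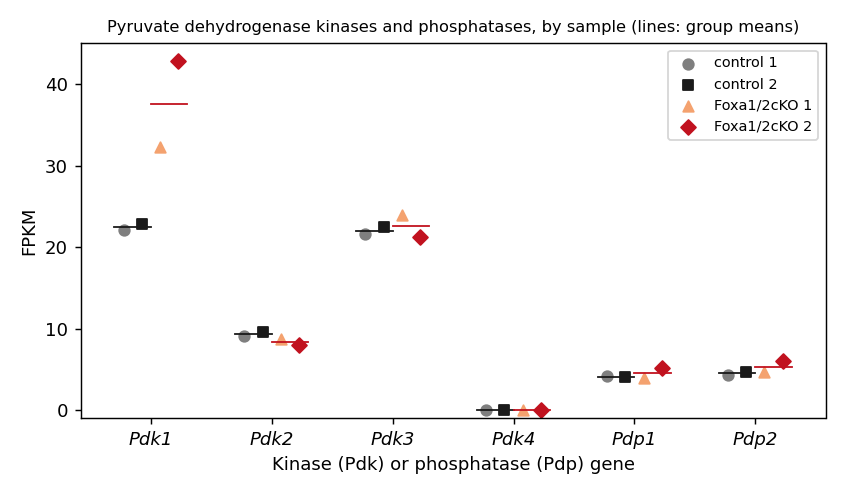
FPKM of the 4 PDH kinase and 2 PDH phosphatase genes in each of the 4 samples, with a line at each group mean (n = 2). *Pdk1* is at 22.05 and 22.8 in the controls, against 32.3 and 42.9 in Foxa1/2cKO. *Pdk2* lies between 8.05 and 9.63 over the 4 samples, *Pdk3* between 21.2 and 24.0, and *Pdk4* is near 0.

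The 4 genes of the PDH complex had similar values in both groups. *Pdha1*, the E1 alpha subunit that the kinases phosphorylate, had 81.8 and 87.8 FPKM in the controls, against 84.1 and 84.6 in Foxa1/2cKO. *Pdhb*, the E1 beta subunit, had 67.8 and 68.9 in the controls, against 63.9 and 66.5 in Foxa1/2cKO. *Dlat*, the E2 acetyltransferase, had 12.1 and 12.6 in the controls, against 12.9 and 13.1 in Foxa1/2cKO. Of these, *Pdhb* was lower and *Dlat* higher in both Foxa1/2cKO samples, by margins within 0.07 on the log2 scale. *Dld*, the E3 dehydrogenase that other keto acid dehydrogenases share, had 37.2 and 38.3 FPKM in the controls, against 41.9 and 34.3 in Foxa1/2cKO, on either side of them. The 95% intervals of the 4 log2 fold changes reached from -0.32 to 0.32, and the summed FPKM was 199 and 208 in the controls, against 203 and 198 in Foxa1/2cKO.

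The mitochondrial pyruvate carrier, which brings pyruvate across the inner membrane, is made of *Mpc1* and *Mpc2*. *Mpc1* had 15.2 and 15.6 FPKM in the controls, against 15.4 in Foxa1/2cKO 1 and 19.1 in Foxa1/2cKO 2. For *Mpc1* the fitted log2 fold change came to 0.15 (standard error 0.13, unadjusted p = 0.310 from limma), which became 0.00013 without Foxa1/2cKO 2. *Mpc2* had 34.9 and 38.5 FPKM in the controls, against 32.8 and 37.3 in Foxa1/2cKO. The groups overlapped for both. Of the 50-base stretches of the *Mpc1* transcript, 29.6% also occur in other annotated genes, so its reads are less certain.

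*Hif1a* (chromosome 12, 73901324 to 73947554) had 32.7 and 32.4 FPKM in the controls, against 37.6 and 39.5 in Foxa1/2cKO, from 1932 to 2332 reads. Both Foxa1/2cKO samples were above both controls, and the samples of a group lay close together. The means were 32.5 ± 0.254 and 38.5 ± 1.35 FPKM (SD, n = 2 each), and the log2 fold change was 0.24 (standard error 0.08, 95% interval 0.02 to 0.46, unadjusted p = 0.0384, limma's Benjamini-Hochberg adjusted p = 0.863). It ran from 0.20 to 0.27 when single samples were left out. The unadjusted p of *Hif1a* from limma was 0.120 with the replicate number as a block, 0.0533 with a correction for gene length, 0.149 with both, and 0.245 and 0.271 without control 1 and control 2. HIF-1 is controlled mainly through the stability of the HIF-1 alpha protein, which was not measured.

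Of 25 further genes of the HIF pathway and its hypoxia-responsive targets, 21 were tested, 11 with higher and 10 with lower values in Foxa1/2cKO, with a median log2 fold change of 0.04. At an unadjusted p under 0.05 there was 1 with a higher mean, *Bnip3l*, and 1 with a lower mean, *Bnip3*, and 0 passed after adjustment. That is 4.76% in each direction, beside a background of 2.39% for higher and 2.15% for lower values, and rests on 1 gene each. Both encode mitophagy receptors and are known HIF-1 targets. *Bnip3l* had 30.6 and 31.3 FPKM in the controls, against 35.4 and 42.2 in Foxa1/2cKO (log2 fold change 0.31, standard error 0.11, unadjusted p = 0.0444 from limma), and *Bnip3* had 1.90 and 2.73 against 1.16 and 1.33 (-0.55, standard error 0.20, unadjusted p = 0.0410 from limma). *Vegfa*, the angiogenic factor gene induced by HIF-1, had 1.07 and 1.54 FPKM in the controls, against 0.799 and 0.756 in Foxa1/2cKO (unadjusted p = 0.132 from limma). The groups did not overlap for any of these, and they lay in different directions. Of the 21 tested genes the groups lay apart for 5 with higher and 5 with lower values (23.8% each, background 18.9% and 17.8%).

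**Figure D3:**
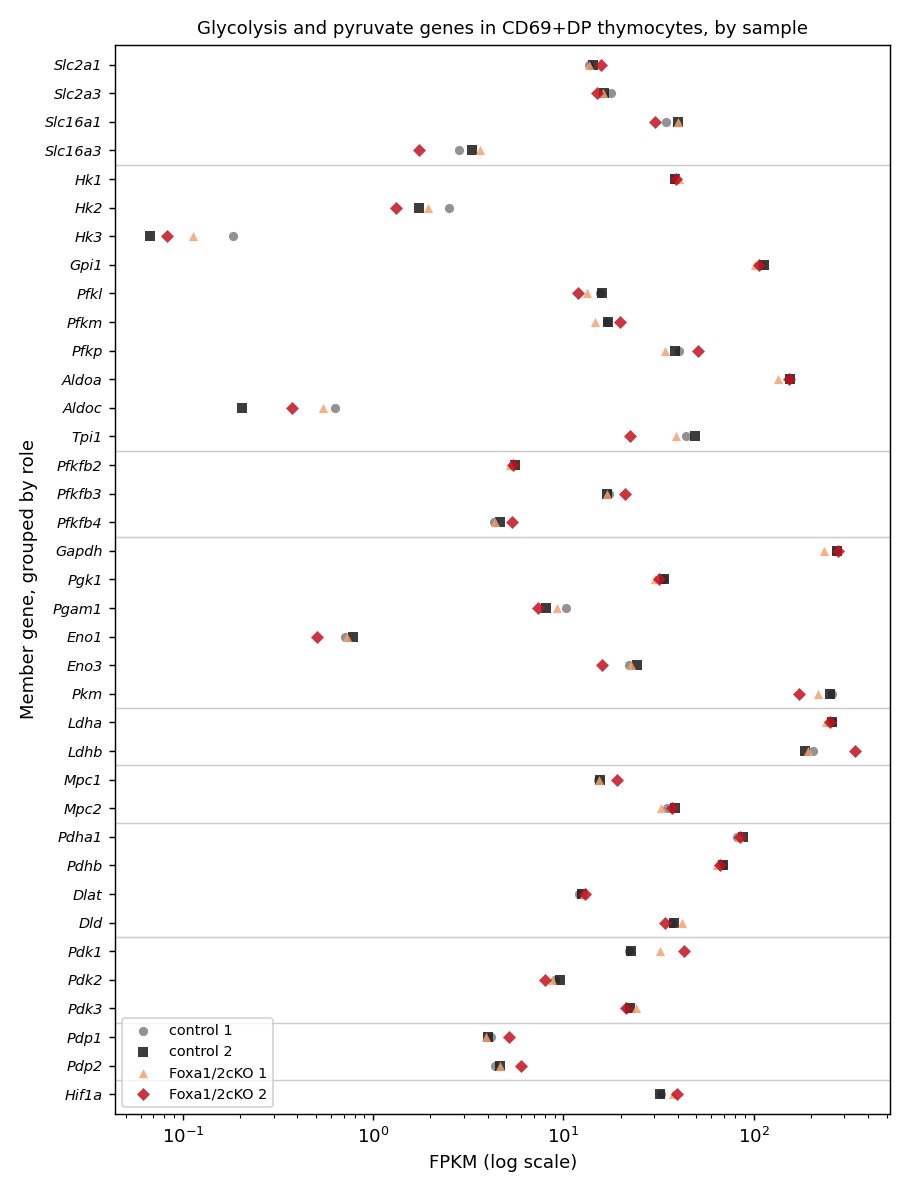
FPKM (log scale) of 37 members in each of the 4 samples, grouped by role from transporters at the top to *Hif1a* at the bottom. *Pdk4*, with 1 read in all, is left out. *Gapdh*, *Ldha* and *Pkm* are highest in the controls, at group means of 273, 257 and 254 FPKM, and the red diamonds of Foxa1/2cKO 2 lie away from the rest for *Tpi1*, *Ldhb*, *Pkm* and *Slc16a3*.

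The levels of the genes spanned a wide range in the controls. On the per-length scale of FPKM, *Gapdh* (mean 273), *Ldha* (257), *Pkm* (254), *Ldhb* (195) and *Aldoa* (154) were highest, followed by *Gpi1* (111). All of these share 50-base stretches with other annotated genes, from 10.2% for *Gpi1* to 34.4% for *Pkm*. The values of *Ldha* and *Pkm* overlapped in the controls, so their order is not resolved. *Pdk1* stood 18th and *Pdk3* 19th in this order, and their values overlapped as well.

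The glucose transporter genes were of medium level. *Slc2a1* (GLUT1), the main transporter of activated T cells, had 13.7 and 14.3 FPKM in the controls, against 13.6 and 15.8 in Foxa1/2cKO. *Slc2a3* (GLUT3), a high-affinity transporter, had 17.8 and 16.4 in the controls, against 16.1 and 15.1 in Foxa1/2cKO. For *Slc2a1* the groups overlapped, and for *Slc2a3* both Foxa1/2cKO samples were lower, by a log2 fold change of -0.12. The monocarboxylate transporter *Slc16a1* (MCT1) had 34.6 and 40.0 FPKM in the controls, against 40.0 and 30.5 in Foxa1/2cKO. *Slc16a3* (MCT4), which exports lactate from highly glycolytic cells, was low at 2.83 and 3.32 FPKM in the controls, against 3.63 and 1.75 in Foxa1/2cKO. For both lactate transporters Foxa1/2cKO 1 was the highest and Foxa1/2cKO 2 the lowest of the 4 samples, the latter being the sample with few cycling transcripts, whose part in this was not tested.

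Upper glycolysis begins with hexokinase, which traps glucose by phosphorylation. *Hk1* had 38.6 and 38.5 FPKM in the controls, against 40.4 and 38.9 in Foxa1/2cKO, just above them, and made up 93.5% to 96.5% of the hexokinase FPKM in every sample. *Hk2*, the inducible isoform, had 2.50 and 1.75 in the controls, against 1.95 and 1.32 in Foxa1/2cKO, from 81 to 206 reads. *Hk3* had 0.184 and 0.0676 in the controls, against 0.113 and 0.0827 in Foxa1/2cKO, from 3 to 9 reads. CD69+DP cells thus expressed mainly *Hk1*. *Gpi1*, which turns glucose 6-phosphate into fructose 6-phosphate, had 109 and 114 FPKM in the controls, against 102 and 106 in Foxa1/2cKO. The fitted difference of *Gpi1* was -0.10 on the log2 scale.

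Phosphofructokinase commits the sugar to glycolysis and has a platelet (*Pfkp*), a muscle (*Pfkm*) and a liver (*Pfkl*) gene. *Pfkl* (chromosome 10, 77986947 to 78009807) had 15.5 and 16.1 FPKM in the controls, against 13.3 and 11.9 in Foxa1/2cKO, from 490 to 864 reads. Both Foxa1/2cKO samples were below both controls, with means of 15.8 ± 0.369 and 12.6 ± 1.01 FPKM (SD, n = 2 each). The log2 fold change was -0.31 (standard error 0.10, 95% interval -0.57 to -0.04, unadjusted p = 0.0313, limma's Benjamini-Hochberg adjusted p = 0.863), and -0.23 without Foxa1/2cKO 2. Its unadjusted p from limma was 0.0722 with the replicate block, 0.0804 with the block and the length correction, and 0.166 and 0.219 without control 1 and control 2. *Pfkp*, the most abundant of the 3, had 40.8 and 38.5 FPKM in the controls, against 34.3 in Foxa1/2cKO 1 and 51.0 in Foxa1/2cKO 2. *Pfkm* had 16.9 and 17.3 in the controls, against 14.6 and 19.8 in Foxa1/2cKO. For both genes the Foxa1/2cKO samples lay on opposite sides of the controls. The *Pfkl* share of phosphofructokinase FPKM was 21.2% and 22.4% in the controls, against 21.4% in Foxa1/2cKO 1 and 14.4% in Foxa1/2cKO 2. In Foxa1/2cKO 1 the 3 genes were thus in nearly the proportions of the controls.

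The bifunctional *Pfkfb* enzymes set the level of fructose 2,6-bisphosphate, the activator of phosphofructokinase. *Pfkfb3*, the isoform with the strongest kinase activity, had 17.3 and 16.9 FPKM in the controls, against 17.0 in Foxa1/2cKO 1 and 21.0 in Foxa1/2cKO 2. *Pfkfb4* had 4.33 and 4.67 in the controls, against 4.38 and 5.39 in Foxa1/2cKO. *Pfkfb2* had 5.52 and 5.56 in the controls, against 5.26 and 5.45 in Foxa1/2cKO. Of the 50-base stretches of its transcript, 26.1% also occur in another annotated gene. *Pfkfb3* held 62.4% to 66.0% of the summed FPKM in every sample, and the differences between groups for *Pfkfb3* and *Pfkfb4* came from Foxa1/2cKO 2.

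*Aldoa*, the aldolase that splits fructose 1,6-bisphosphate, had 153 and 156 FPKM in the controls, against 134 and 154 in Foxa1/2cKO. *Aldoc* was at 0.628 and 0.205 in the controls, against 0.549 and 0.377 in Foxa1/2cKO, from 8 to 27 reads. Triose phosphate isomerase, *Tpi1* (chromosome 6, 124810586 to 124814158), had 43.9 and 49.5 FPKM in the controls, against 38.9 in Foxa1/2cKO 1 and 22.3 in Foxa1/2cKO 2. Both Foxa1/2cKO samples were lower, and Foxa1/2cKO 2 was far below the rest. The fitted log2 difference was -0.64 (standard error 0.27, 95% interval -1.35 to 0.07, unadjusted p = 0.0677 from limma), and it was -0.25 without Foxa1/2cKO 2. With the replicate block, and with limma-voom on recovered reads, the unadjusted p of *Tpi1* was under 0.05. Of the 8 tested genes of upper glycolysis 2 had higher and 6 lower fitted values, and the 10 genes together summed to 421 and 431 FPKM in the controls, against 380 and 406 in Foxa1/2cKO.

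In lower glycolysis all 5 tested genes had lower means in Foxa1/2cKO. Pyruvate kinase, *Pkm* (chromosome 9, 59656576 to 59679372), which makes pyruvate and has 2 splice forms that gene counts do not separate, had 258 and 251 FPKM in the controls, against 218 and 173 in Foxa1/2cKO. Both Foxa1/2cKO samples were lower, with means of 254 ± 5.22 and 196 ± 31.6 FPKM (SD, n = 2 each). The log2 fold change was -0.39 (standard error 0.13, 95% interval -0.74 to -0.03, unadjusted p = 0.0380, limma's Benjamini-Hochberg adjusted p = 0.863) and -0.22 without Foxa1/2cKO 2. The unadjusted p of *Pkm* was 0.0521 with no filter on low values, 0.0508 with the same sum in every sample, 0.0513 with the length correction and replicate block together, and 0.19997 and 0.163 without control 1 and control 2 (limma). Of the 50-base stretches of its transcript, 34.4% also occur in other annotated genes. *Gapdh*, the dehydrogenase that yields NADH, had 272 and 274 FPKM in the controls, against 233 in Foxa1/2cKO 1 and 278 in Foxa1/2cKO 2. *Pgk1*, the first ATP-yielding kinase, had 33.3 and 33.7 in the controls, against 30.3 and 31.7 in Foxa1/2cKO, and *Pgam1*, the mutase, had 10.3 and 8.08 in the controls, against 9.30 and 7.38 in Foxa1/2cKO. For *Gapdh*, *Pgk1* and *Pgam1*, 27.8%, 68.0% and 41.5% of the transcript is shared with other annotated genes in the same way. The groups overlapped for *Gapdh* and *Pgam1*, and for *Pgk1* both Foxa1/2cKO samples were lower.

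For enolase, which makes phosphoenolpyruvate, the muscle gene *Eno3* had 22.1 and 24.3 FPKM in the controls, against 22.8 in Foxa1/2cKO 1 and 16.0 in Foxa1/2cKO 2, with a log2 fold change of -0.27 (standard error 0.18, unadjusted p = 0.211 from limma) that was -0.02 without Foxa1/2cKO 2. The ubiquitous gene *Eno1* was at only 0.715 and 0.788 FPKM in the controls, against 0.730 and 0.507 in Foxa1/2cKO, from 10 to 19 reads. Of its 50-base stretches, 72.2% also occur in other annotated genes, most of all in *Eno1b*, a near-identical copy that was looked up after these values were seen and that had 1 to 4 reads per sample. Reads from such stretches fit several genes, so the *Eno1* value is uncertain. Summed over the 6 genes, lower glycolysis came to 597 and 592 FPKM in the controls, against 515 and 507 in Foxa1/2cKO, a ratio of means of 0.859 without overlap. In Foxa1/2cKO 1 both *Gapdh* and *Pkm* were under the controls, and in Foxa1/2cKO 2 *Pkm* was and *Gapdh* was not.

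Lactate dehydrogenase turns pyruvate into lactate. *Ldha*, whose subunit favours lactate formation, had 257 and 257 FPKM in the controls, against 241 and 252 in Foxa1/2cKO, with a fitted log2 difference of -0.06 (95% interval -0.28 to 0.16). *Ldhb* (chromosome 6, 142490249 to 142507957), whose subunit favours the reverse reaction, had 205 and 186 FPKM in the controls, against 194 in Foxa1/2cKO 1 and 342 in Foxa1/2cKO 2. Foxa1/2cKO 2 was far above the rest, and Foxa1/2cKO 1 lay between the controls. The log2 fold change of *Ldhb* was 0.40 (standard error 0.28, 95% interval -0.34 to 1.14, unadjusted p = 0.222 from limma). Without Foxa1/2cKO 2 it was -0.01. The *Ldhb* share of lactate dehydrogenase FPKM was 44.4% and 41.9% in the controls, against 44.6% in Foxa1/2cKO 1 and 57.6% in Foxa1/2cKO 2. Of the 50-base stretches of the *Ldha* and *Ldhb* transcripts, 16.6% and 27.0% also occur in other annotated genes.

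**Figure D4:**
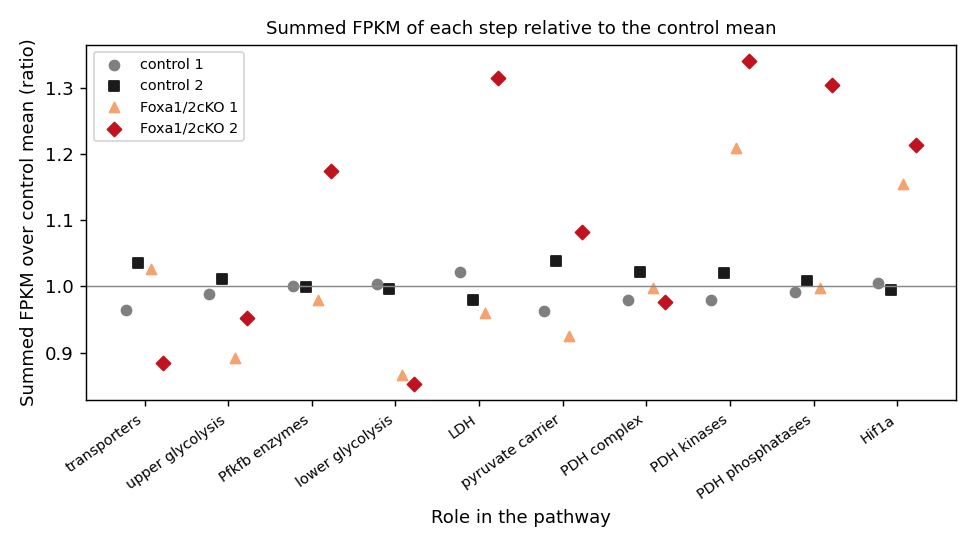
Summed FPKM of the members of each role in each sample, divided by the mean of the 2 controls (line at 1, axis not from 0). The PDH kinases and *Hif1a* lie above the controls in both Foxa1/2cKO samples, upper and lower glycolysis lie below them in both, and lactate dehydrogenase and the phosphatases lie above only in Foxa1/2cKO 2.

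Much of the spread among members lay between the 2 Foxa1/2cKO samples. Across the 34 tested members, the log2 difference between the controls had an SD of 0.116 and that between the Foxa1/2cKO samples one of 0.346, beside 0.198 and 0.405 over all genes tested. The Foxa1/2cKO samples were further apart than the controls for 29 of 34 members. They differed by over 0.25 on the log2 scale for 17 members, 9 of them higher and 8 lower in Foxa1/2cKO 2, whereas the controls did so for 2. These counts are not given over all genes tested, where the SD was also larger between the Foxa1/2cKO samples. Foxa1/2cKO 2 was the highest or lowest sample for 25 members (73.5%), beside 73.8% of all genes tested. The low cycling and high DP marker sums of this sample stand beside each of these values, and their part was not tested. In bulk RNA, fewer cells of one kind and less RNA per cell cannot be told apart.

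**Figure D5:**
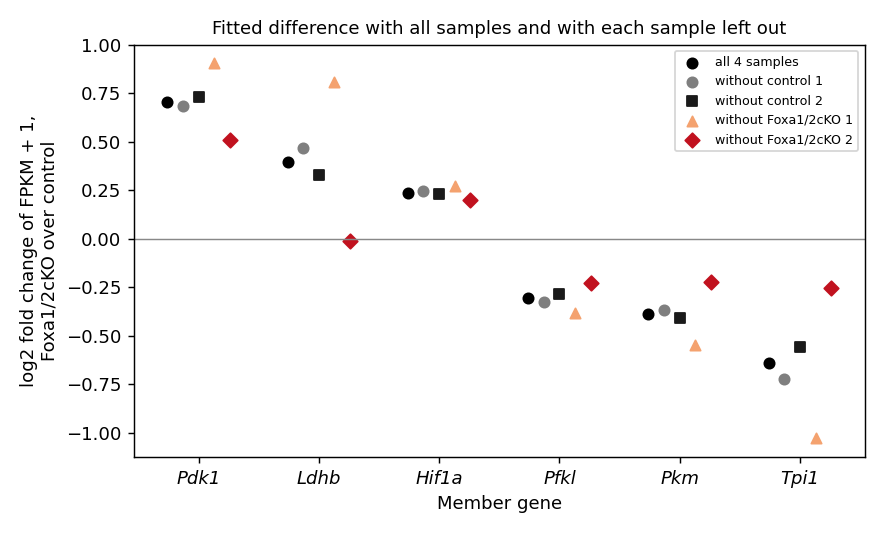
Fitted log2 fold change (Foxa1/2cKO over control) of 6 members from all 4 samples and from fits that omit a single sample. *Pdk1* lies between 0.51 and 0.91 and *Hif1a* between 0.20 and 0.27, whereas *Ldhb* is at -0.01 and *Tpi1* at -0.25 without Foxa1/2cKO 2.

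Genes of the same and neighbouring pathways that are not members were counted beside them. Of 32 other glycolysis and pyruvate genes 20 were tested, 7 with higher and 13 with lower values, a median log2 fold change of -0.08, and 1 with an unadjusted p under 0.05 (5%, near the background of 4.55%). It was *Pdpr*, the regulatory subunit of PDH phosphatase, with 10.3 and 8.70 FPKM in the controls, against 12.7 and 14.5 in Foxa1/2cKO (log2 fold change 0.47, standard error 0.13, unadjusted p = 0.0167, Benjamini-Hochberg adjusted p = 0.863 from limma, and 0.38 without Foxa1/2cKO 2). The groups did not overlap for this gene. *Adpgk* and *Tigar*, the next by p, were lower in both Foxa1/2cKO samples (log2 fold change -0.20 and -0.22). Of the 20 tested genes the groups lay apart for 2 with higher and 8 with lower values (10% and 40%, background 18.9% and 17.8%). Of the 16 citric acid cycle genes 5 had higher and 11 lower values, a median of -0.03, with 1 under an unadjusted p of 0.05 (6.25%, background 4.55%). This was *Sdha*, the flavoprotein of succinate dehydrogenase, at 82.4 and 86.4 FPKM in the controls, against 71.1 and 73.2 in Foxa1/2cKO (log2 fold change -0.22, standard error 0.08, unadjusted p = 0.0455, Benjamini-Hochberg adjusted p = 0.863 from limma). All 7 genes of the pentose phosphate pathway, which branches off at glucose 6-phosphate, lay between -0.09 and 0.14, and none had an unadjusted p under 0.05.

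Among 15 upstream regulators of glycolysis in T cells, 13 were tested, 8 with higher and 5 with lower values, and 0 had an unadjusted p under 0.05. *Sirt3*, a mitochondrial deacetylase, had 4.75 and 4.82 FPKM in the controls, against 3.999 and 3.89 in Foxa1/2cKO, and *Foxo3*, a forkhead factor restrained by AKT, had 21.7 and 18.6 against 22.3 and 25.7. The groups did not overlap for either gene. Of the 13 tested regulators the groups lay apart for 5 with higher and 4 with lower values (38.5% and 30.8%, background 18.9% and 17.8%). The median log2 fold change of the 13 was 0.08.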

How the data were processed

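RNA from sorted CD69+DP thymocytes was sequenced in 2 control and 2 Foxa1/2cKO samples. Alignment by the authors was to mm10 with RefSeq annotation, reads per gene came from HTSeq (union mode), and the submitters' processing notes also name TopHat, Picard and DESeq2. The deposited table gives FPKM for each gene in each sample, and the step that made them is not given in the sources used here. FPKM are not counts and were tested on a log scale. The steps between values gave whole reads for 16067 of the 16069 genes above 0, and the totals behind the FPKM were proportional to median-of-ratios size factors. Of the symbols, 27 had been turned into dates.

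Differences were fitted with limma 3.58.1 in R 4.3.3 on log2(FPKM + 1) with a mean-variance trend, over all 10776 genes that reached an FPKM of 1 in 2 or more samples, with Benjamini-Hochberg adjustment (threshold 0.05). The pseudocount of 1 understates the change of low genes. There were 2 residual and 2.69 prior degrees of freedom. The script was tested on simulated data. Tables were made in Python 3.11.15 with pandas 2.3.3, numpy 2.4.6 and scipy 1.17.1, and figures with matplotlib 3.10.9. Gene positions and promoters are from RefSeq GRCm38.p6, the assembly of mm10.

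The members and all lists were chosen with earlier results of these data known. All 38 members are named, with the fold change, standard error and p for the tested kinases, members with an unadjusted p under 0.05 and the 5 lowest p per direction, and up to 3 genes of each other list by lowest p. *Eno1b* was added after values were seen. Alternatives were a pseudocount of 0.1, no filter, an FPKM of at least 5, upper-quartile scaling, the same sum in every sample, the replicate number as a block, a loess length correction with and without that block, limma-voom on recovered reads, a re-estimated null variance and leaving out each sample. Whether each sample holds RNA of 1 mouse or of several is not given, so the spread between samples may not be that between mice. The p-values rest on the spread between these samples, moderated by the trend over all genes. Exon usage was not analysed here. The values of 1 gene among the upstream regulators are not reported here.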

Additional observations from a re-analysis of the deposited data

How the results depend on the processing

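Of 335 member log2 fold changes under the 10 alternatives that kept all samples, 6 had the other sign, and all 6 were within 0.02 of 0: *Pfkm* (0.012) and *Pdha1* (0.013) with the length correction, with or without the replicate block, and *Dld* with upper-quartile scaling (-0.0077) and with the same sum in every sample (-0.0056). Under these 10, 0 members had an adjusted p under 0.05. The number with an unadjusted p under 0.05 was 4 in the main fit (background 4.55% of all genes tested). It was 2 with the length correction and replicate block together (background 3.51%) and 0 with the re-estimated null variance (background 0.251%). Under the other 8 it was 3 to 5, with backgrounds of 3.51% to 4.99%. The median of the members was -0.024 with the length correction, with or without the block. *Pdk1* stayed at 0.69 to 0.73 under the 10.

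Leaving out 1 sample gave 1 to 14 members with an unadjusted and 0 to 10 with an adjusted p under 0.05, the most without Foxa1/2cKO 1, where the fit over all genes put 2559 genes past the threshold and the lone Foxa1/2cKO sample is assumed to vary like the controls. At an unadjusted p under 0.05 (limma) the background over all genes tested was 39.2% without Foxa1/2cKO 1 and 17.5% without Foxa1/2cKO 2. It was 1.08% without control 1 and 0.677% without control 2. The highest member count thus came with the highest background, and each of these fits leaves 1 sample in a group. The median of the members ran from -0.052 to 0.0047. *Pdk1* ran from 0.51 to 0.91. The sign changed for *Slc2a1* (-0.039 to 0.16), *Slc16a1* (-0.28 to 0.10), *Slc16a3* (-0.56 to 0.19), *Pfkm* (-0.21 to 0.20), *Pfkp* (-0.20 to 0.36), *Pfkfb3* (-0.011 to 0.28), *Pfkfb4* (-0.031 to 0.22), *Gapdh* (-0.23 to 0.024), *Pgam1* (-0.28 to 0.033), *Ldhb* (-0.011 to 0.81), *Mpc2* (-0.16 to 0.024), *Pdha1* (-0.058 to 0.044), *Dld* (-0.14 to 0.14), *Pdk3* (-0.050 to 0.12) and *Pdp1* (-0.054 to 0.28), and the other 19 tested members kept their sign throughout. The cause was not tested. With the replicate block, 3 members had an unadjusted p under 0.05 (*Tpi1*, *Pkm* and *Pdk1*), beside a background of 3.51% of all genes tested. Deviations of same-numbered samples correlated at -0.06 over 10776 genes, and what a number marks is not given, so the samples were not treated as pairs.

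With 2 samples per group the fit cannot resolve small differences: the 95% intervals of the members were at least 0.42 wide on the log2 scale. The widest, 1.49, was that of *Slc16a3*.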
